A study of Lotus japonicus with 16 samples.

Results

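The 851 genes described here are those that the authors listed as changed by high temperature in whole shoots of Lotus japonicus grown at low phosphate. They are all rows of 1 of the 4 deposited tables, out of 3958 genes listed in any table. The 2 groups compared were shoots of accession MG-20, a model legume, at 6.4 µM phosphate and either 30 °C with nights of 29 °C (high temperature) or 23 °C with nights of 22 °C (favorable temperature). Each group had 2 poly(A) RNA libraries, and both groups had low phosphate, so neither is a phosphate-replete control. Growth was hydroponic, treatment lasted 3 weeks, and each replicate pooled 3 plants. The labels state 5 replicates per treatment, while the series holds 2 libraries for each group. The other tables compared the same temperatures in shoots at 64 µM phosphate (sufficient P), and low with sufficient P in roots at each temperature.

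Phosphate is taken up by roots and moved to the shoot, and plants short of it induce genes for its uptake, recycling and sparing. Warmth below the range of heat damage alters growth, the timing of development and hormone and clock gene activity in plants. The series asks how these 2 conditions act together. The gene table used here gives locus symbols and no functions, so genes are named by symbol, no pathway is assigned to them, and shoot identity could not be checked against marker genes.

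The table holds no values per library. Each gene has 1 base mean (its average count after correction for library size), 1 log2 fold change, called its log2 ratio here, with a standard error (SE) and 1 adjusted p from DESeq2, all the authors' own. Log2 ratios are printed with their SE after ±. To be listed, a gene needed an adjusted p below 0.05 and at least a doubling or halving, that is 1 log2 unit either way. Levels in each group, in normalised counts, were derived from the base mean and the fold, and therefore have no error of their own. Normalised counts depend on gene length, so they compare conditions within a gene and not genes with each other. A fold here is high over favorable temperature. The table does not state its reference group, so "rose" stands for the authors' up-regulated genes, read as higher at high temperature. In whole shoots, fewer cells of a type and less RNA per cell cannot be told apart.

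At low P, 355 genes rose and 496 fell. Listing thus took in 4.16% of the 20438 genes over which the authors' p-values were adjusted, with 1.74% listed as risen and 2.43% as fallen. The quartiles of the rises were log2 ratios of 1.19 and 1.86 in the authors' deposited table, with a median of 1.40, or 2.63-fold. Those of the falls were -1.99 and -1.22 in the authors' deposited table, with a median of -1.51, or 2.85-fold. Most changes were thus under 4-fold, with 278 rises and 374 falls below that size. Changes of at least 8-fold were listed for 26 rises and 39 falls.

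The precision of a fold followed the level. Among genes with a base mean under 30 the median SE was 0.83 on the log2 scale, and among those at 10000 or more it was 0.21. A 95% interval from the authors' SE lay wholly beyond 2-fold for 278 of the 851 genes, of which 115 rose and 163 fell. This rule was chosen after the values were seen. At the edge of the list, the smallest absolute log2 ratio was 1.00 and the largest adjusted p was 0.04996 (DESeq2, the authors' deposited table). Genes just outside those limits are not listed and have no values here.

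Base mean, read here as the depth behind a fold and not as a level between genes, ranged widely in both directions. Its median was 283 normalised counts for genes that rose and 177 for genes that fell, and 24.8% of rises against 34.7% of falls had a base mean under 100. Rises made up 34.5% of the 58 listed genes with a base mean under 30 and 33.7% of the 202 from 30 to 100. They were 41.1% of the 246 genes from 100 to 300 and 50.5% of the 182 from 300 to 1000. Their share was 40.3% among the 129 genes from 1000 to 10000 and 64.7% among the 34 above that, so it did not climb steadily with base mean.

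**Figure D1:**
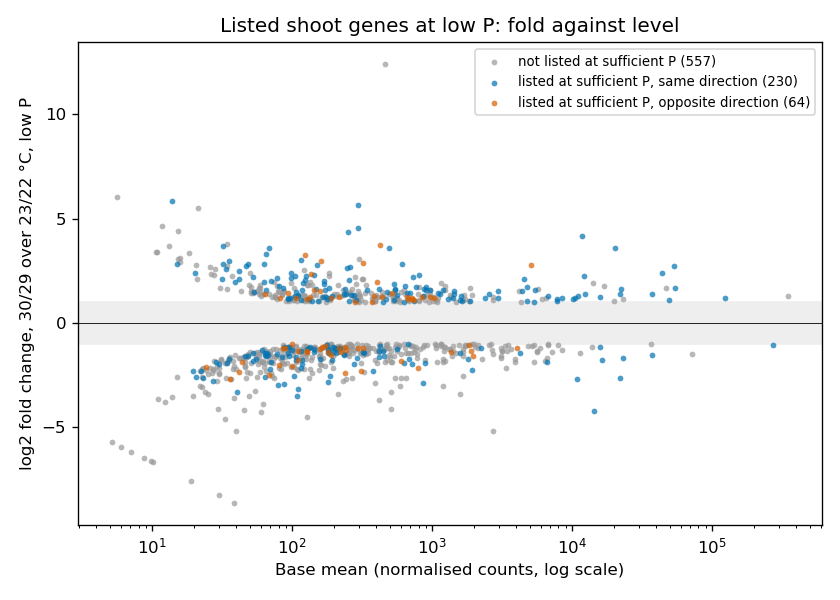
Log2 ratio with temperature at low P (y axis) against base mean in normalised counts (x axis, log scale) for the 851 listed genes, with no error bars. Grey points are the 557 genes not listed at sufficient P, blue the 230 listed there in the same direction and orange the 64 listed there in the opposite direction. The shaded band holds no points because genes with an absolute log2 ratio under 1 were not listed.

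The largest rises among genes measured in both groups were in LOC130732583 and LOC130730112, which are neighbours in the RefSeq gene order. This group takes the 8 largest rises and 8 largest falls whose base mean was 50 or more, with at least 1 normalised count in each group. LOC130732583 went from 11.7 to 584 normalised counts, and the authors' deposited table gives a log2 ratio of 5.64 ± 0.45 (DESeq2 adjusted p = 2.49e-33). LOC130730112 went from 23.98 to 566 normalised counts, for which the authors' deposited table gives 4.56 ± 0.36 (DESeq2 adjusted p = 1.33e-33). Both also rose at sufficient P, by log2 ratios of 5.61 ± 0.87 and 4.08 ± 1.19 in the authors' deposited table. Adjacent genes of similar fold may be copies that share reads, and no sequence was used here to compare them.

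LOC130729290 rose from 23.5 to 476 normalised counts (log2 ratio 4.34 ± 0.37, the authors' deposited table). LOC130729186 rose from 76.4 to 915 normalised counts (log2 ratio 3.58 ± 0.31, the authors' deposited table). LOC130715502 rose from 10.4 to 127 normalised counts (log2 ratio 3.61 ± 0.58, the authors' deposited table). Counts of these genes ran from 10.4 to 76.4 in cool low-P shoots and from 127 to 915 in warm ones. A pair of the large rises rested on more counts in both groups. LOC130749566 went from 3108 to 37329 normalised counts, and the authors' deposited table gives a log2 ratio of 3.59 ± 0.24 (DESeq2 adjusted p = 1.07e-45). LOC130718498 went from 1250 to 22238 normalised counts with a wider error, at 4.15 ± 0.70 on the log2 scale (the authors' deposited table). The last of the 8 rises, LOC130746349, went the other way at sufficient P and is described with the genes that did so.

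The largest fall in the same group was that of LOC130747750, from 5318 to 149 normalised counts. The authors' deposited table gives it a log2 ratio of -5.16 ± 0.78 (DESeq2 adjusted p = 5.53e-09). LOC130710931 fell from 27312 to 1457 normalised counts and had the smallest adjusted p of all 851 genes, 1.20e-57 (DESeq2; log2 ratio -4.23 ± 0.25, the authors' deposited table). LOC130746892 fell from 962 to 54.7 normalised counts (log2 ratio -4.14 ± 0.26, the authors' deposited table; DESeq2 adjusted p = 3.29e-52). Of these 3, LOC130710931 was the only one also listed in shoots at sufficient P.

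LOC130722034 fell from 776 to 60.8 normalised counts (log2 ratio -3.67 ± 0.32, the authors' deposited table). LOC130727422 fell from 243 to 10.7 normalised counts (log2 ratio -4.51 ± 0.44, the authors' deposited table). Its neighbour LOC130727421 fell too, from 317 to 44.6 normalised counts (log2 ratio -2.83 ± 0.34, the authors' deposited table). LOC130737684, LOC130733896 and LOC130735550 completed the group, with levels of 113, 116 and 198 normalised counts in cool shoots and 5.91, 7.91 and 17.4 in warm ones. Their log2 ratios were -4.26 ± 0.76, -3.87 ± 0.78 and -3.51 ± 0.46 in the authors' deposited table.

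**Figure D2:**
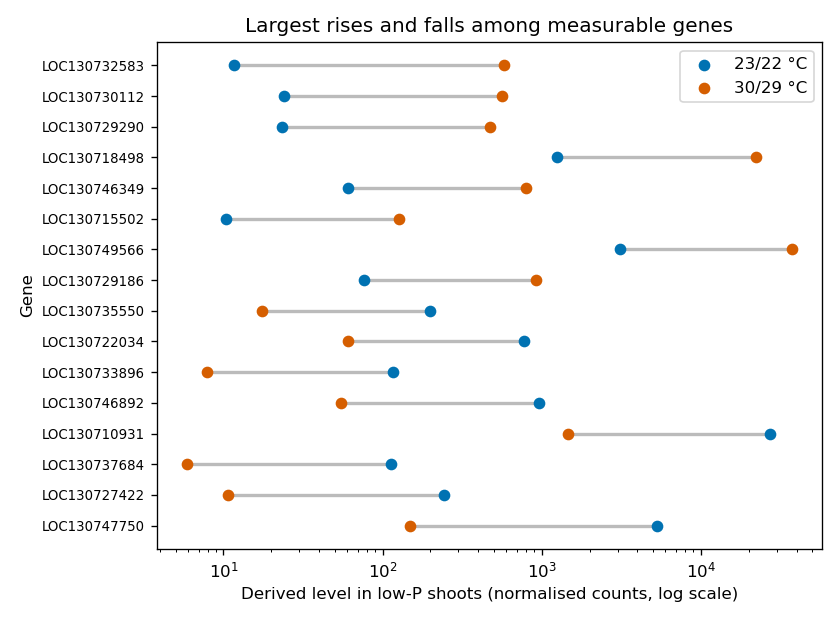
Derived levels in low-P shoots (x axis, normalised counts, log scale) of the 8 largest rises and 8 largest falls (y axis) among genes whose base mean was 50 or more, with at least 1 normalised count in each group. Blue points are the favorable and orange points the high temperature, each a group of 2 libraries with no error available. The levels span 5.91 to 37329 normalised counts, and large folds occur at both ends.

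The smallest adjusted p-values belonged mostly to these genes. The others among the 4 smallest in each direction were LOC130722089, LOC130711700 and LOC130738147. LOC130711700 fell from 2883 to 271 normalised counts, and the authors' deposited table gives a log2 ratio of -3.41 ± 0.24 (DESeq2 adjusted p = 6.92e-43). LOC130738147 fell from 18638 to 2915 normalised counts at low P (log2 ratio -2.68 ± 0.21, the authors' deposited table). It fell at sufficient P as well, with -3.26 ± 0.16 on the log2 scale (the authors' deposited table).

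For 5 rises and 9 falls the lower of the 2 levels was derived as under 1 normalised count, so the fold is a fitted value and gives no ratio. LOC130723458 was the clearest of these, at 920 normalised counts in warm shoots. By fitted fold, the next rise was that of LOC130725873, at 11.1 normalised counts in warm shoots. The falls to such levels were led by LOC130742350 and LOC130731803, which had been at 76.9 and 59.9 normalised counts in cool shoots. None of these 4 genes was listed in shoots at sufficient P. LOC130723458, LOC130742350 and LOC130731803 were listed as risen with low P in roots at the favorable temperature.

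At the other end of the range, 34 genes had a base mean of at least 10000 normalised counts, of which 22 rose and 12 fell. Of these 34 genes, 24 were listed at sufficient P too, and all 24 went the same way there. The 3 genes with a base mean over 100000 are named after their values were seen. LOC130746504 rose from 202194 to 497581 normalised counts, with a log2 ratio of 1.30 ± 0.18 in the authors' deposited table. LOC130746509 rose from 75723 to 173685 normalised counts (log2 ratio 1.20 ± 0.18, the authors' deposited table). LOC130714495 fell from 371854 to 177028 normalised counts (log2 ratio -1.07 ± 0.17, the authors' deposited table).

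A stretch of 5 consecutive protein-coding genes held 4 of these 34 genes, and all 4 rose. Besides LOC130746509 and LOC130746504, these were LOC130746506, from 13883 to 93280 normalised counts, and LOC130746514, from 14421 to 31442. Their log2 ratios were 2.75 ± 0.31 and 1.12 ± 0.22 in the authors' deposited table. At sufficient P, LOC130746509 and LOC130746506 rose, by 1.01 ± 0.19 and 2.17 ± 0.67 on the log2 scale (the authors' deposited table), and the other 2 were not listed. The stretch was picked after its values were seen, and reads shared between near-identical copies would not be told apart.

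More widely, 57 pairs of listed genes were direct neighbours in the order of protein-coding genes, and 46 of these pairs (80.7%) went the same way. Both genes rose in 18 pairs and both fell in 28. The mix of rises and falls in the list would give 51.4% the same way, and the share was 77.4% in the shoot table at sufficient P and 72.1% and 79.4% in the 2 root tables. No test was made of these shares. The gene order is that of another accession of the species, Gifu. The longest runs held 3 genes. LOC130734253, LOC130734255 and LOC130734256 all fell, by log2 ratios of -1.73 ± 0.28, -1.67 ± 0.48 and -1.12 ± 0.30 in the authors' deposited table. LOC130711099, LOC130715479 and LOC130714968 all rose, by 1.29 ± 0.21, 1.12 ± 0.23 and 1.35 ± 0.36 on the log2 scale (the authors' deposited table).

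The same temperature step in shoots at sufficient P listed 8.28% of the 20144 genes behind that adjustment. Of the 851 low-P genes, 294 (34.5%) were listed there, which is 17.6% of that table. These included 164 of the 355 rises (46.2%) and 130 of the 496 falls (26.2%). Of the rises, 134 (37.7%) rose there and 30 (8.45%) fell, where 4.51% and 3.77% of all genes tested were listed as risen and fallen. Of the falls, 34 (6.85%) rose there and 96 (19.4%) fell. The 2 shoot comparisons have no library in common. Among the 134 genes that rose at both supplies, the median log2 ratio was 1.56 at low P and 2.11 at sufficient P, and 99 had the larger fold at sufficient P. Among the 96 genes that fell at both, the medians were -1.60 and -1.53, and 55 had the larger fold at low P. The other 557 genes have no fold listed at sufficient P, so whether they responded differently was not tested.

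Each shared gene's fold at low P was set against its fold at sufficient P, with the difference divided by its error from both SEs and referred to the normal distribution (two-sided, Benjamini-Hochberg over the 294 genes). Both folds had already passed the listing limits, which fixes the outcome for genes listed in opposite directions, and the counts are no rate over all genes. An adjusted p under 0.05 was reached by 103 genes (35.0%), made up of all 64 with opposite directions and 39 of the 230 with the same direction. The 39 were 33 of the 134 genes that rose at both supplies and 6 of the 96 that fell at both. The 64 fixed results eased the Benjamini-Hochberg limit for the other 230 genes. Adjusting over those 230 alone, chosen after seeing the data, left 30. Under Bonferroni adjustment over the 294 genes, 15 of the 230 passed. The median SE was 0.34 at low P and 0.38 at sufficient P.

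Likeness of folds was looked at in genes chosen for going the same way, which leaves out reversals such as LOC130722089 and LOC130746349. By smallest adjusted p at low P, 4 genes that went the same way at both were taken: LOC130710931, LOC130749566, LOC130730112 and LOC130732583. LOC130738147 tied with LOC130732583 in adjusted p and was left out by sort order alone. It fell by log2 ratios of -2.68 ± 0.21 at low P and -3.26 ± 0.16 at sufficient P in the authors' deposited tables. For LOC130749566 the difference, low minus sufficient P, was 0.16 on the log2 scale with a 95% interval of -0.46 to 0.78. For LOC130732583 it was 0.03 (-1.90 to 1.95) and for LOC130730112 0.48 (-1.95 to 2.91), intervals that leave room for large differences. For LOC130710931 it was -1.84 (-3.61 to -0.06), with a log2 ratio of -2.39 ± 0.87 at sufficient P in the authors' deposited table and an adjusted p for the difference of 0.11 in the test over all 294 genes.

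Of the 39 same-direction genes past the test, 5 had the larger fold at low P and are named because of that count, and 34 had the smaller fold there. LOC130745140 rose at low P from 13892 to 73999 normalised counts, and its log2 ratio was 2.41 ± 0.21 at low P and 1.32 ± 0.21 at sufficient P in the authors' deposited tables. LOC130715502 rose by 3.61 ± 0.58 and 1.39 ± 0.49 on the log2 scale (the authors' deposited tables). LOC130730290 fell at low P from 38168 to 6057 normalised counts, with -2.66 ± 0.30 and -1.07 ± 0.24 on the log2 scale (the authors' deposited tables). LOC130723190 and LOC130710048 fell by 2.89 ± 0.26 and 2.93 ± 0.45 at low P and by 1.21 ± 0.35 and 1.19 ± 0.29 at sufficient P on the log2 scale (the authors' deposited tables). Under Bonferroni adjustment 2 of the 5 passed, LOC130723190 and LOC130730290.

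Temperature acted in opposite directions on 64 genes. These are given as a description. At low P 30 of them rose, with a median log2 ratio of 1.25 there and -1.78 at sufficient P. The clearest by the ratio of difference to error was LOC130722089. It went from 1294 to 8897 normalised counts at low P and from 6602 to 1678 at sufficient P. Its log2 ratios were 2.78 ± 0.17 and -1.98 ± 0.14 in the authors' deposited tables. LOC130746349 went from 60.3 to 792 normalised counts at low P and from 526 to 181 at sufficient P (log2 ratios 3.72 ± 0.24 and -1.54 ± 0.22, the authors' deposited tables). The 2 tables were normalised separately, so levels compare within a table. Over the 294 shared genes, the median ratio of base means, sufficient over low P, was 0.663.

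LOC130743044 rose from 396 to 927 normalised counts at low P and fell from 1544 to 261 at sufficient P. LOC130720294 rose from 23.2 to 224 at low P and fell from 415 to 43.3 at sufficient P.

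The reverse pattern was listed for 34 genes, with a median log2 ratio of -1.40 at low P and 2.23 at sufficient P. LOC130723133 fell from 1297 to 294 normalised counts at low P and rose from 75.0 to 581 at sufficient P. Its log2 ratios were -2.14 ± 0.31 and 2.95 ± 0.31 in the authors' deposited tables. LOC130710442 fell from 2509 to 1185 normalised counts and rose from 95.5 to 529 at sufficient P. LOC130720753 fell from 932 to 264 and rose from 43.2 to 141, and LOC130739388 fell from 408 to 179 and rose from 6.04 to 109 normalised counts.

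**Figure D3:**
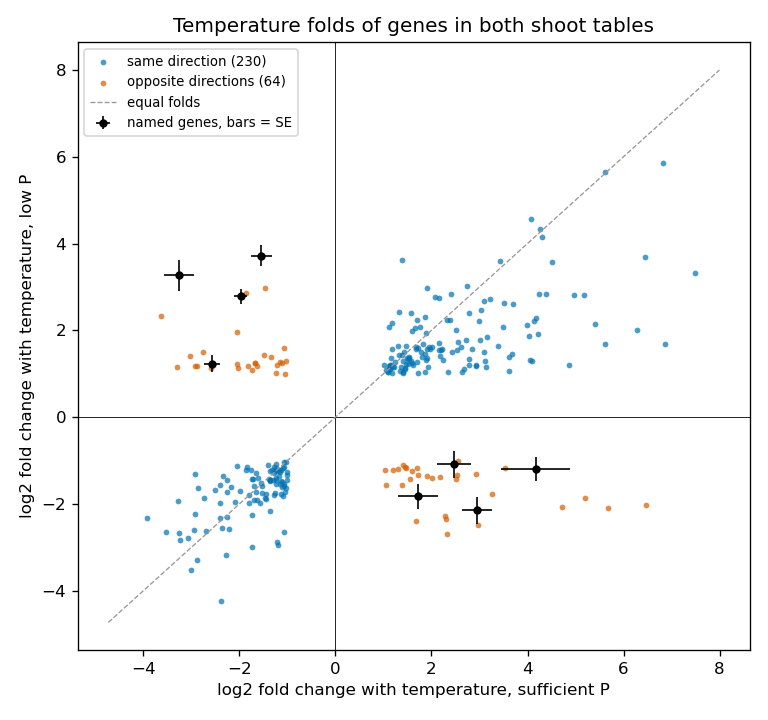
Log2 ratio with temperature at low P (y axis) against sufficient P (x axis) for the 294 genes listed at both supplies. Blue points (230) went the same way and orange points (64) opposite ways, black points are the 8 named genes with opposite directions, and bars are the authors' SE. Most blue points in the upper right lie below the dashed line of equal folds, as 99 of 134 genes had the larger rise at sufficient P.

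The roots of the series give a measure of which of these genes respond to phosphate, from other libraries and another tissue. Low P listed 10.1% of the 20175 genes tested in roots at the favorable temperature, and 4.05% of 20129 in roots kept warm. Of the 851 shoot genes, 219 (25.7%) were listed in the first root table, which is 10.7% of that table, and 125 (14.7%) in the second, 15.3% of it. A further 392 genes (46.1%), 155 rises and 237 falls, were listed in no other table. Those other comparisons listed only 8.28% (shoots at sufficient P), 10.1% and 4.05% (roots) of the genes tested. Most genes tested are thus listed in none of them, and the 46.1% is no sign of genes particular to low-P shoots. The root and shoot comparisons have treatments in common but no library.

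Genes that low P had raised in roots were prominent among the falls. Of the 496 genes that fell in warm low-P shoots, 124 (25.0%) had risen with low P in roots at the favorable temperature and 31 (6.25%) had fallen, against 4.67% and 5.46% of all root genes tested. Of the 355 genes that rose, 17 (4.79%) had risen and 47 (13.2%) had fallen. In roots at the high temperature, 19 of the rises had risen and 19 had fallen with low P, and 73 of the falls had risen there against 14 that had fallen. Of all genes tested in those roots, 2.27% were listed as risen and 1.78% as fallen. These shares turn round if one tissue's reference group is other than read here, and they were not tested.

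Both root tables listed 63 of the 496 falls (12.7%) as risen with low P, where 316 genes in all were so listed, 1.57% of the 20129 tested in warm roots. Of the 63, 54 (85.7%) were not listed in shoots at sufficient P, as were 366 (73.8%) of all the falls. LOC130715920 went from 389 to 36.2 normalised counts in low-P shoots, with a log2 ratio of -3.43 ± 0.31 in the authors' deposited table. LOC130723985 went from 1056 to 131 normalised counts (log2 ratio -3.01 ± 0.29, the authors' deposited table) and LOC130719721 from 934 to 151 (log2 ratio -2.63 ± 0.22, the authors' deposited table). With low P in roots these 3 had risen by 3.68 ± 0.46, 4.11 ± 0.38 and 4.90 ± 0.72 on the log2 scale at the favorable temperature in the authors' deposited table. They were named after their values were seen.

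In 4 of the neighbouring pairs both genes fell in warm low-P shoots and both had risen with low P in roots at the favorable temperature. LOC130746589 and LOC130746591 fell from 1704 to 470 and from 2117 to 264 normalised counts. Their log2 ratios with low P in roots at the favorable temperature were 6.46 ± 0.43 and 6.42 ± 0.41 in the authors' deposited table. LOC130739818 and LOC130739820 fell from 930 to 94.7 and from 16614 to 6060 normalised counts, and LOC130716882 and LOC130716881 from 418 to 64.5 and from 5490 to 1231. The pair LOC130738112 and LOC130738114 had smaller falls, from 63.2 to 19.9 and from 370 to 137 normalised counts.

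**Figure D4:**
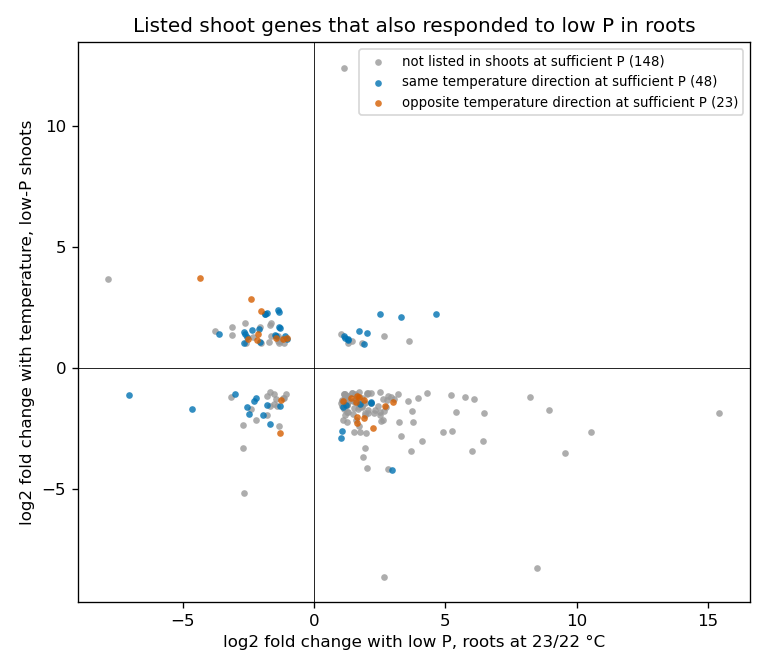
Log2 ratio with temperature in low-P shoots (y axis) against log2 ratio with low P in roots at the favorable temperature (x axis) for the 219 genes listed in both, with no error bars. Colours give the gene's temperature response in shoots at sufficient P: grey not listed (148), blue same direction (48), orange opposite direction (23). The lower right panel of points, higher with low P in roots and lower with warmth in low-P shoots, holds 124 of the points.

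Listing in all 4 comparisons applied to 23 genes, 10 that rose and 13 that fell in warm low-P shoots. LOC130729594, LOC130728248 and LOC130718581 rose in every comparison. LOC130729594 went from 4233 to 19930 normalised counts in low-P shoots, and its log2 ratios with temperature were 2.24 ± 0.21 at low P and 2.32 ± 0.22 at sufficient P in the authors' deposited tables. With low P it had risen by 4.63 ± 0.38 in cool and 3.68 ± 0.40 in warm roots on the log2 scale (the authors' deposited tables). LOC130728248 went from 1692 to 7338 normalised counts in low-P shoots (log2 ratio 2.12 ± 0.19, the authors' deposited table), against 3.99 ± 0.26 at sufficient P in the authors' deposited table. LOC130718581 rose by 1.30 ± 0.31 at low P and 4.09 ± 0.77 at sufficient P on the log2 scale (the authors' deposited tables).

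LOC130740468, LOC130748235 and LOC130746616 fell in every comparison, from 1142 to 293, from 999 to 266 and from 686 to 227 normalised counts in low-P shoots. Another kind had risen with low P in both root comparisons and fallen with warmth at both supplies. It comprised LOC130710931, LOC130710088, LOC130714077, LOC130718593 and LOC130739742. With low P, LOC130710931 had log2 ratios of 2.95 ± 0.27 in cool roots and 1.89 ± 0.27 in warm roots in the authors' deposited tables.

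Another 4 of the 23 had risen with low P in roots and with warmth at sufficient P, but fell with warmth at low P. These were LOC130714160, LOC130726546, LOC130723143 and LOC130710187. LOC130714160 fell from 2925 to 985 normalised counts at low P and rose from 334 to 694 at sufficient P. LOC130735295 also turned round between supplies, falling from 62.7 to 9.68 at low P and rising from 12.4 to 61.9 normalised counts at sufficient P, while low P lowered it in roots at both temperatures. LOC130746349 rose with warmth at low P and fell in the other 3 comparisons, with log2 ratios of -4.36 ± 0.44 and -3.15 ± 0.48 with low P in roots in the authors' deposited tables. The remaining 6, LOC130745845, LOC130738429, LOC130732846, LOC130715698, LOC130725964 and LOC130746327, rose with warmth at both supplies and fell with low P in roots at both temperatures.

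**Figure D5:**
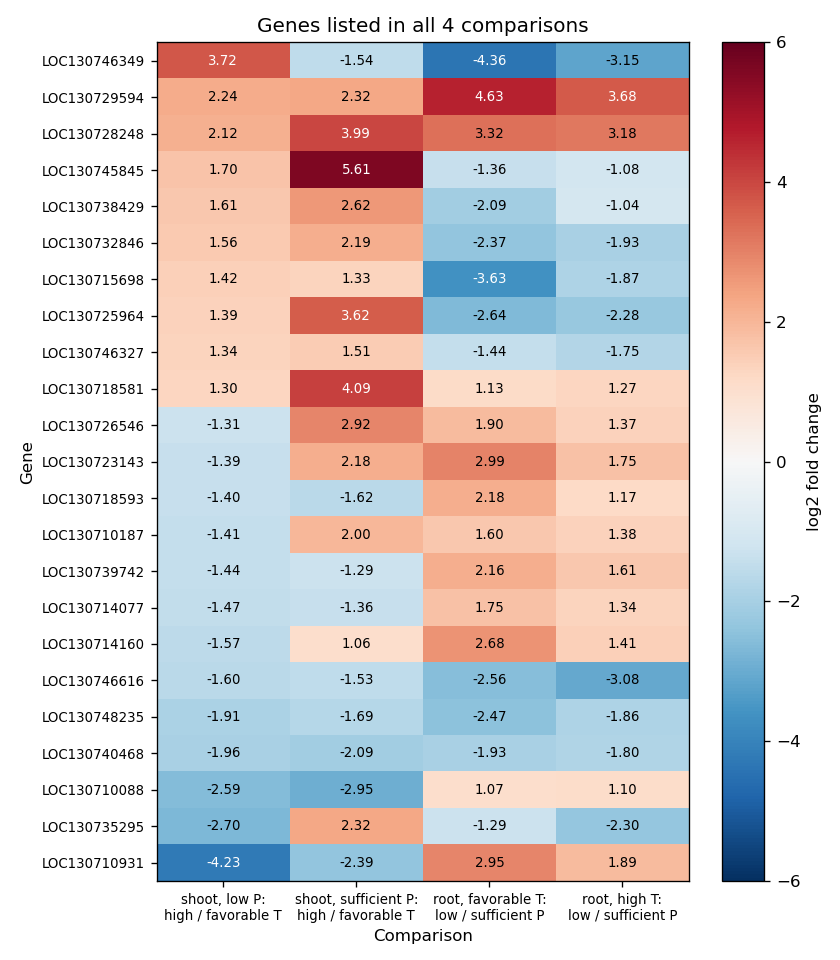
Log2 ratios of the 23 genes listed in all 4 comparisons (rows) in each comparison (columns), from the authors' deposited tables. Red is higher and blue lower at high temperature (shoots) or at low P (roots), and rows run from the largest rise to the largest fall in low-P shoots, from 3.72 for LOC130746349 to -4.23 for LOC130710931.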

How the data were processed

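Whole-shoot and whole-root poly(A) RNA was made into directional libraries and read in 150 bp pairs, per the labels' protocols. Reads were handled with DESeq2 1.44.0, RSEM 1.3.3, FastQC 0.14.0 and Trimmomatic 0.39.2, per the submitters' processing notes; their settings, the build and the annotation were not given in the sources used here. Per the file headers, the authors deposited for each listed gene a base mean (the mean of counts over size factors), a log2 fold change with its SE on the log2 scale, a Wald statistic (a score), and a p-value with its adjusted p-value. The statistic equalled fold over SE in every low-P shoot row, which does not by itself settle whether folds were shrunken. Depth is unknown, no gene was tested from libraries, and no replicate could be left out.

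With Python 3.11.15, pandas 2.3.3 and scipy 1.17.1, the number of genes tested was recovered as adjusted over raw p of the top gene. Levels were derived from base mean and fold for equal groups. Both shoot folds were compared by the difference over its combined SE. The test was checked on simulated folds drawn without the listing limits, so the check does not cover genes selected by those limits. RefSeq's gene table (assembly LjGifu_v1.2) held all 851 identifiers and was used for symbols and gene order only. It gives no functions and no sequences were used, so gene lists and promoter motifs could not be scored. The genes named include the 8 largest rises and falls whose base mean was 50 or more with both levels at least 1. The 4 smallest adjusted p-values each way and the 2 largest folds each way were named too. Among genes with opposite directions at the 2 supplies, the 4 largest ratios of difference to error each way were taken. Among genes with the same direction, 4 were taken by smallest adjusted p at low P, with a tie at the last place. Others were named after their values were seen. Members, lists and rules were all chosen with earlier results of these data known. Nothing in the labels says that libraries of 1 group were grown apart beyond being separate pools.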

Additional observations from a re-analysis of the deposited data

Results flagged for a closer look

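Of the 294 genes listed in shoots at both phosphate supplies, 103 passed a test of the difference between their 2 temperature folds. All 64 genes with opposite directions are among them, an outcome that their listing had fixed. The test was open only for the 230 genes with the same direction, of which 39 passed. Adjustment ran over all 294 genes, so the 64 fixed results eased the limit for these 230. Adjusting over the 230 alone, chosen after seeing the data, left 30. The values below are differences of log2 fold changes, low minus sufficient P, for the genes named in the report that passed that test.

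Among genes with opposite directions that rose at low P, the differences were 6.529 for LOC130720294, 5.256 for LOC130746349, 4.757 for LOC130722089 and 3.794 for LOC130743044. Among those that fell at low P, they were -5.364 for LOC130739388, -5.094 for LOC130723133, -5.016 for LOC130735295, -4.226 for LOC130726546, -3.566 for LOC130723143, -3.552 for LOC130710442, -3.532 for LOC130720753, -3.411 for LOC130710187 and -2.627 for LOC130714160.

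Among genes that went the same way, the rise was smaller at low P for LOC130745845 (-3.914), LOC130718581 (-2.784) and LOC130728248 (-1.874). The response was larger at low P for LOC130715502 (2.219) and LOC130745140 (1.09), which rose, and for LOC130710048 (-1.747), LOC130723190 (-1.679) and LOC130730290 (-1.587), which fell.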

How the results depend on the processing

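No paired analysis was possible because each gene has only a summary of both groups. Another count tool and leaving out a replicate were not run for that reason. Gene list and promoter motif alternatives were not run, since functions and sequences were not used here. Of 35 recomputed counts, 21 stayed within 1.5 times of the reported one and 14 moved. No rows were identical, so counting identical rows once could not change any count. A level of at least 1 in both groups left 837 of the 851 genes. The tally of unchanged counts was thus partly fixed in advance. At 4-fold or more, 199 genes stayed, 77 that rose and 122 that fell. A 95% interval wholly beyond 2-fold, chosen after seeing the data, left 278, made up of 115 rises and 163 falls. Among genes whose base mean reached 100 there were 324 falls of the 496. That limit in both shoot tables left 165 shared genes, of which 57 against 103 passed the test of a difference, 24 against 39 with the same direction. Each of these limits takes genes out by its own construction. Bonferroni adjustment left 15 of the 39, and adjusting over the 230 same-direction genes alone, chosen after seeing the data, left 30.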
